A study of Mus musculus with 8 samples.

Results

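The transcripts of 10 CC chemokine ligand genes, *Ccl2*, *Ccl3*, *Ccl4*, *Ccl5*, *Ccl6*, *Ccl7*, *Ccl8*, *Ccl9*, *Ccl12* and *Ccl24*, were followed in microglia sorted from mouse brain. They were taken by gene symbol through their Ensembl identifiers, and all 10 had a row among the 55573 genes counted. The mutant group, called SmadKO, comprised 4 mice in which *Smad2* and *Smad3*, which encode the transcription factors of canonical TGFβ signalling, were floxed on both alleles and deleted by Cx3cr1Cre. The control group, called WT, comprised 4 littermates that the sample labels call wild-type, and all 8 mice were at postnatal day 60. The Methods state that no mouse of the breeding scheme lacked both transgenes and floxed alleles and that controls were generally fl/+ with Cre, so the controls may have carried Cre and heterozygous deletions. Cre expressed from the *Cx3cr1* locus acts in microglia and in related macrophages, including those at the borders of the brain. According to the Methods, cells from a Percoll gradient that carried the tdTomato reporter of recombination were gated on CD45 and CD11b, which other myeloid cells also carry, and the labels give 1 library of RNA per mouse.

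CC chemokines are small secreted proteins that draw leukocytes along a gradient by binding G protein-coupled CC receptors on their surface. In the brain they are released mainly by activated microglia and border macrophages and by astrocytes, and they bring in CCR2-bearing monocytes, T cells and other leukocytes. The family takes its name from a pair of adjacent cysteines near the start of the mature protein, which fold the chain through disulphide bonds. Most of its genes lie side by side in clusters, and several are close copies of each other.

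The coding bases around that cysteine pair are shown for all 10 genes, because they are what defines the family and because they show how far the neighbouring copies had diverged where reads must be told apart. Each line gives 60 bases of the coding strand, 5′ to 3′, within 1 exon of the GENCODE M21 annotation on GRCm38, and the capitals mark the codons of the 2 adjacent cysteines.
*Ccl2* (chr11:82036497-82036556, plus strand): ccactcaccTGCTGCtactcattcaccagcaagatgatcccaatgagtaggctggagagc
*Ccl3* (chr11:83648607-83648666, minus strand): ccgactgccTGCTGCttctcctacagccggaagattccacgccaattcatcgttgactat
*Ccl4* (chr11:83663473-83663532, plus strand): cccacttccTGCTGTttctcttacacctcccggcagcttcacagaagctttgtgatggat
*Ccl5* (chr11:83529197-83529256, minus strand): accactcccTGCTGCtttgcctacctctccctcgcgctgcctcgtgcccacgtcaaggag
*Ccl6* (chr11:83589341-83589400, minus strand): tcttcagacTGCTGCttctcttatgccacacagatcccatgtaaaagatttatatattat
*Ccl7* (chr11:82046529-82046588, plus strand): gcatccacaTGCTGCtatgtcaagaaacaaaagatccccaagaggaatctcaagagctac
*Ccl8* (chr11:82116047-82116106, plus strand): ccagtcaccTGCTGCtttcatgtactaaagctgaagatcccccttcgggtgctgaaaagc
*Ccl9* (chr11:83575881-83575940, minus strand): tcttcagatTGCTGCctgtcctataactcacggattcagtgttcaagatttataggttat
*Ccl12* (chr11:82102625-82102684, plus strand): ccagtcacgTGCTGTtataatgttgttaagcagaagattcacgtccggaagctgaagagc
*Ccl24* (chr5:135572620-135572679, minus strand): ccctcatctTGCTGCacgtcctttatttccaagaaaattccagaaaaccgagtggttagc
The codon pair was TGCTGC in all but *Ccl4* and *Ccl12*, which had TGCTGT. Over the aligned coding sequences, *Ccl6* and *Ccl9* were the most alike pair with 71.6% identical bases, followed by *Ccl8* and *Ccl12* with 71.0% and *Ccl3* and *Ccl4* with 70%. *Ccl2* had 67.9% identical bases with *Ccl12* and 65.6% with *Ccl7*. The longest run of identical bases between transcripts of any of these pairs was 25 bases, for *Ccl6* and *Ccl9*. None of the 50-base words of 9 of the genes occurred in a transcript of another gene, and 1.97% of those of *Ccl9* did. No exon of the 10 genes overlapped an exon of another gene on either strand, which matters because the libraries were unstranded.

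Between 37649124 and 40932680 reads per WT library and between 35639502 and 41946479 per SmadKO library were counted on genes. Levels are given as CPM, counts relative to the library's total after scaling by TMM factors, fold changes come from edgeR's quasi-likelihood test over 20153 genes, and a call is an adjusted p-value under 0.05. *Smad3* was at 39.5, 56.9, 49.0 and 49.2 CPM in the WT libraries and at 15.1, 9.61, 35.1 and 17.5 CPM in the SmadKO libraries, a log2 fold change of -1.33 (SE 0.36, adjusted p = 0.0429), so transcript remained in every mutant. The count for the other deleted gene is not reported here. *Xist*, an X-linked RNA that silences the chromosome it comes from, was between 99.5 and 183 CPM in WT and at most 0.562 CPM in SmadKO. The Y-linked *Ddx3y* was the reverse. By these transcripts the WT mice were female and the SmadKO mice male, so for every result below genotype and sex cannot be told apart. Of 8 microglia and macrophage markers, 6 were called lower in SmadKO, against 7.97% of all tested genes. Among them were *P2ry12* (log2 fold change -4.84), *Tmem119* (-3.48) and *Csf1r* (-1.32). *Csf1r* went from between 6151 and 10560 CPM in WT to between 2336 and 4205 CPM in SmadKO. *C1qa* was not called, with 2646 to 4504 CPM in WT and 2662 to 4065 CPM in SmadKO, and both macrophage genes were thus detected at these levels in all libraries.

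Of the 10 ligand genes 4 were higher in SmadKO microglia and none was lower. These were the monocyte attractants *Ccl2* (2.95-fold) and *Ccl7* (19.7-fold), their neighbour *Ccl8*, and *Ccl3* (2.70-fold), which encodes MIP-1α. The remaining 6, *Ccl4*, *Ccl5*, *Ccl6*, *Ccl9*, *Ccl12* and *Ccl24*, did not pass the test. Over all genes tested, 4.36% were called higher and 7.97% lower. In the 4 called genes each SmadKO library was above each WT library, an arrangement that 9.04% of all tested genes showed, while 22.1% showed no overlap in either direction. The median log2 fold change of the 10 genes was 1.19 and that of all tested genes 0.01. At an unadjusted p-value under 0.05 there were 7 ligand genes, where 28.7% of all tested genes reached it in either direction, and 3 of the 10 had a 95% interval of the log2 fold change that held 0. All 10 passed the count filter, 9 of them in both groups, whereas *Ccl8* passed only through the SmadKO libraries and so had to differ. The calls of *Ccl2*, *Ccl3* and *Ccl7* were made under all 14 alternative settings.

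**Figure D1:**
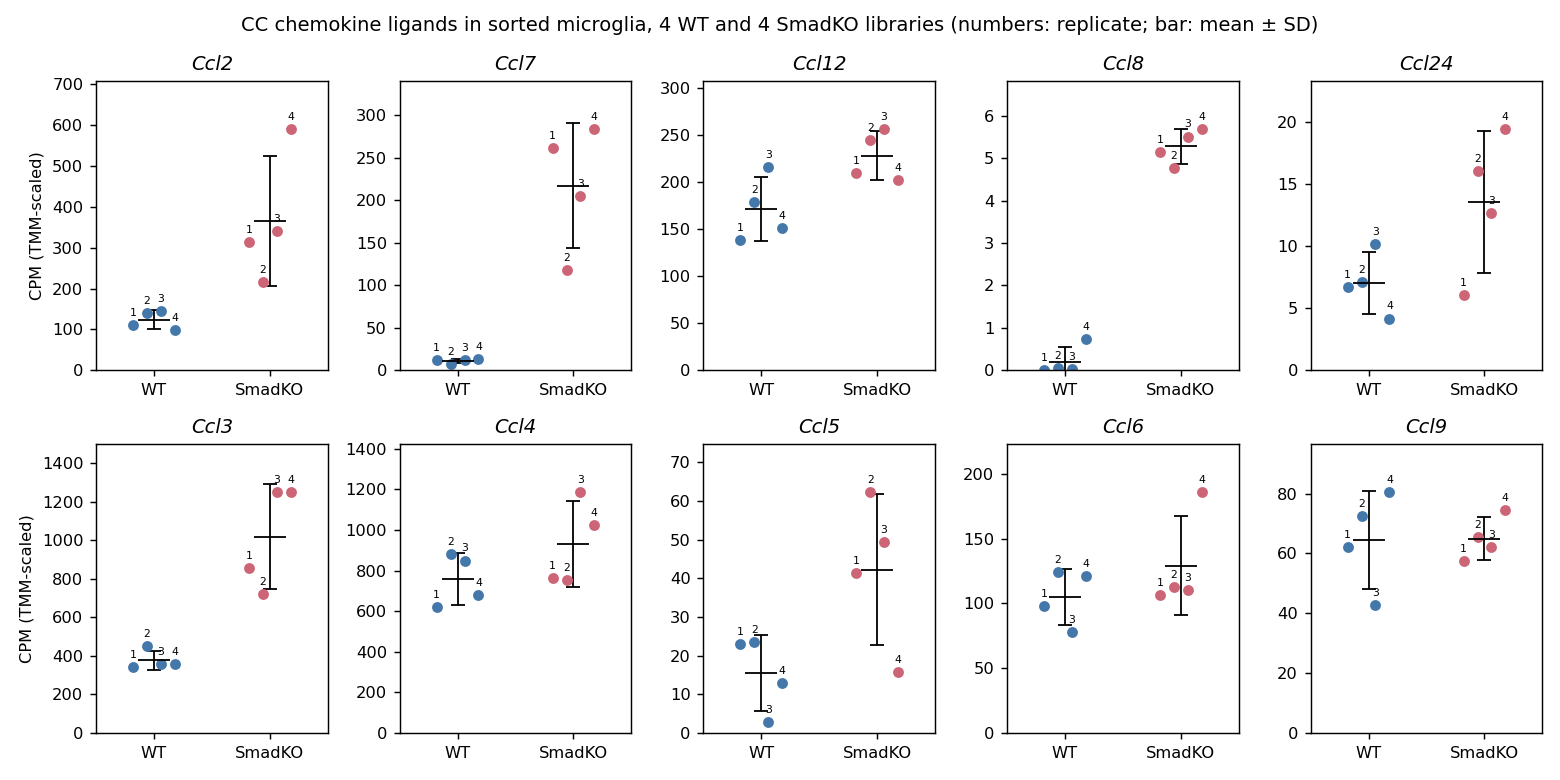
Scaled CPM of the 10 CC chemokine ligand genes in 4 WT and 4 SmadKO libraries, with a linear axis from 0 for each gene, points numbered by replicate, and bars for the mean ± SD. In *Ccl2*, *Ccl3*, *Ccl7* and *Ccl8* the groups do not overlap, and SmadKO 4 is the highest mutant library for 6 of the 10 genes.

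*Ccl2*, *Ccl7*, *Ccl12* and *Ccl8* form a cluster of 81.2 kb on chromosome 11 and are transcribed in the same direction. *Ccl2*, *Ccl7* and *Ccl12* encode MCP-1, MCP-3 and MCP-5, ligands of CCR2 that draw monocytes. *Ccl2* (chr11:82035571-82037453, plus strand) was at 109.9, 139.8, 146 and 99.2 CPM in WT and at 313, 216, 340.0 and 590.1 CPM in SmadKO. The lowest mutant library was above the highest control, and SmadKO 4 stood above the other mutants. This gave a log2 fold change of 1.56 (SE 0.30, 95% interval 0.88 to 2.24, adjusted p = 0.0101).

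*Ccl7* (chr11:82045712-82047525, plus strand) begins 10.1 kb beyond the start of *Ccl2* and had the largest rise of the ligand genes that passed the filter in both groups. It was at 12.4, 7.06, 11.8 and 12.9 CPM in WT and at 261, 118.5, 205 and 284 CPM in SmadKO, so even the lowest mutant library was far above all controls. Its log2 fold change was 4.30 (SE 0.33, 95% interval 3.54 to 5.05, adjusted p = 9.8e-05).

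*Ccl12* (chr11:82101845-82103400, plus strand) moved little beside its neighbours. It was at 139, 179, 216 and 151 CPM in WT and at 209.5, 245, 256 and 202 CPM in SmadKO, and WT 3 lay above both SmadKO 1 and SmadKO 4. The log2 fold change was 0.41 (SE 0.18, 95% interval 0.02 to 0.81, adjusted p = 0.157 by edgeR), which did not pass the threshold.

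*Ccl8* (chr11:82115185-82116799, plus strand) encodes MCP-2, in the mouse a ligand of CCR8, and its transcript was nearly absent from controls. Its counts were 0, 2, 1 and 27 in WT and 198, 221, 198 and 206 in SmadKO. These correspond to 0, 0.0521, 0.0280 and 0.726 CPM in WT and to 5.14, 4.77, 5.51 and 5.69 CPM in SmadKO, where the 4 mutants were close to each other. The log2 fold change was 4.69 (SE 1.17, 95% interval 2.04 to 7.34, adjusted p = 0.0322). Of the 30 WT counts 27 came from WT 4, without which the fitted log2 fold change was 7.51, a value that depends on the prior count. Leaving out any 1 of 6 libraries (WT 2, WT 3 or any SmadKO library) took the adjusted p-value above 0.05, to 0.0869 at most, and 7 of the 13 alternatives that kept the gene called it.

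Markers of border-associated macrophages were also higher in SmadKO. Of 8 such markers 6 were called higher, against 4.36% of all tested genes. The largest log2 fold changes were those of *Ms4a7* (6.98), *Pf4* (6.48) and *Mrc1* (4.88), and none of the 8 markers was at 0 in all libraries. Their summed level was between 53.3 and 99.3 CPM in WT and between 1639 and 2538 CPM in SmadKO. In bulk RNA, more or fewer cells of a type and more or less RNA per cell cannot be told apart. Divided by that sum within each library, *Ccl7* was at 0.162, 0.0711, 0.210 and 0.241 in WT and at 0.159, 0.0666, 0.0953 and 0.112 in SmadKO, and the groups overlapped. For *Ccl8* the corresponding range was 0 to 0.0136 in WT and 0.00224 to 0.00314 in SmadKO, which also overlapped. The upper end in WT rests on the 27 counts of WT 4. For *Ccl2* it was 1.41 to 2.59 in WT and 0.121 to 0.233 in SmadKO, and every other ligand gene was likewise lower in all mutants. Since the sum itself went from a mean of 71.3 CPM in WT to 2027 CPM in SmadKO, these ratios restate the fold changes of the ligand genes against that of the markers. The paper reports markers of border-associated macrophages in microglia of *Itgb8* mutants. In *Smad2/3* mutants it describes increases of such genes as generally smaller than in its other mutants. The part of border-associated macrophages in the levels of the ligand genes was not tested. Markers of monocytes, the cells that these ligands attract, gave 0 calls among 7, with sums of 179.7 to 432.5 CPM in WT and 131 to 295 CPM in SmadKO. The libraries hold sorted cells only, and recruitment of monocytes to the brain was not tested.

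Tested genes averaging 3 log2 CPM or more were ranked by likeness to *Ccl8*. The profile over the 8 libraries that was most like that of *Ccl8* was *Runx3*, with a root mean square distance of 0.778 on the centred log2 CPM scale over 10345 genes. *Acp5* (0.949) and *Apoc1* (0.980) followed. *Runx3* rose from a mean of 3.25 CPM in WT to 95 CPM in SmadKO. Since *Ccl8* passed the filter only through the SmadKO libraries, its profile is mostly the difference between the groups. Genes with a fold change of like size therefore had to rank first, and the rise of *Runx3* is no separate result. The log2 fold changes were 4.87 for *Runx3*, 4.81 for *Acp5* and 5.07 for *Apoc1*, beside 4.69 for *Ccl8*. No ligand gene fell, so no such search was made for a fall.

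The other cluster on chromosome 11 spans 138.9 kb from *Ccl5* to *Ccl4* and also holds *Ccl9*, *Ccl6* and *Ccl3*. *Ccl3*, *Ccl4* and *Ccl5* encode MIP-1α, MIP-1β and RANTES, which attract T cells and macrophages, and of the 3 only *Ccl3* passed the test. *Ccl3* (chr11:83647844-83649355, minus strand) was at 344, 451, 357 and 357 CPM in WT and at 856, 723, 1252 and 1251 CPM in SmadKO. All mutants lay above all controls, and WT 2 was the highest control. The resulting log2 fold change was 1.43 (SE 0.22, 95% interval 0.95 to 1.92, adjusted p = 0.0031).

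*Ccl4* (chr11:83662584-83664683, plus strand) lies next to *Ccl3* on the opposite strand. It was at 622.5, 882, 849.9 and 680.4 CPM in WT and at 761, 755, 1188 and 1026 CPM in SmadKO, and 2 mutants fell inside the control range. Its log2 fold change was 0.30 (SE 0.20, 95% interval -0.16 to 0.76, adjusted p = 0.380), so the upper end of its interval lay below the lower end of that of *Ccl3*.

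*Ccl5* (chr11:83525778-83530518, minus strand) was the most uneven of these 3 genes. It was at 23.1, 23.4, 2.80 and 12.99 CPM in WT and at 41.4, 62.3, 49.5 and 15.8 CPM in SmadKO. In 3 mutants it was above all controls, while SmadKO 4, the highest mutant library for 6 of the 10 ligand genes, was below WT 1 and WT 2. This amounted to a log2 fold change of 1.44 (SE 0.62, 95% interval 0.05 to 2.83, adjusted p = 0.162 by edgeR).

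*Ccl5* is made by T and natural killer cells as well as by myeloid cells, and markers of those lymphocytes were set beside it. Of 7 such markers 3 were called higher, *Cd3e*, *Nkg7* and *Trac*, against 4.36% of all tested genes. None of the 7 markers was at 0 in all libraries. Their summed level was 49.6, 52.6, 14.3 and 42.6 CPM in WT 1 to WT 4 and 110.2, 148, 145.5 and 56.3 CPM in SmadKO 1 to SmadKO 4. In each group the library with the lowest sum, WT 3 and SmadKO 4, was also the library with the lowest *Ccl5*. Divided by that sum, *Ccl5* was between 0.196 and 0.466 in WT and between 0.281 and 0.421 in SmadKO, and the groups overlapped. The overlap was not particular to *Ccl5*, whose groups overlapped in CPM too. After the same division the groups overlapped for every other ligand gene except *Ccl8*. Of these, only *Ccl2*, *Ccl3* and *Ccl7* had not overlapped in CPM. *Ccl2*, for example, was between 2.22 and 10.2 in WT and between 1.46 and 10.5 in SmadKO after the division. Over all 8 libraries *Ccl5* ran from 2.80 to 62.3 CPM before the division and from 0.196 to 0.466 after it. The sort described in the Methods was on tdTomato, CD45 and CD11b, and the part of lymphocytes in the level of *Ccl5* was not tested.

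*Ccl6*, *Ccl9* and *Ccl24* did not pass the test. *Ccl6* and *Ccl9* encode ligands of CCR1 that attract macrophages and other leukocytes. *Ccl6* (chr11:83587882-83593087, minus strand) was at 97.9, 124, 78.0 and 121 CPM in WT and at 107, 113, 110.2 and 186 CPM in SmadKO, and all mutants but SmadKO 4 lay inside the control range. Its log2 fold change was 0.29 (SE 0.23, 95% interval -0.23 to 0.82, adjusted p = 0.453), and without SmadKO 4 it was 0.06.

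*Ccl9* (chr11:83572919-83578636, minus strand) gave nearly the same mean in both groups. It was at 62.3, 72.4, 42.8 and 80.5 CPM in WT and at 57.4, 65.5, 62.0 and 74.5 CPM in SmadKO. Every mutant library lay inside the control range, and the log2 fold change of 0.01 (SE 0.20, 95% interval -0.45 to 0.47, adjusted p = 0.986) turned negative in 4 alternatives.

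*Ccl24* lies apart from the others on chromosome 5 (chr5:135569937-135573049, minus strand). It encodes eotaxin-2, a ligand of CCR3 that attracts eosinophils. It was at 6.67, 7.08, 10.2 and 4.17 CPM in WT and at 6.08, 16.0, 12.7 and 19.4 CPM in SmadKO, and SmadKO 1 was below 3 of the 4 controls. The log2 fold change was 0.95 (SE 0.40, 95% interval 0.05 to 1.85, adjusted p = 0.153 by edgeR).

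**Figure D2:**
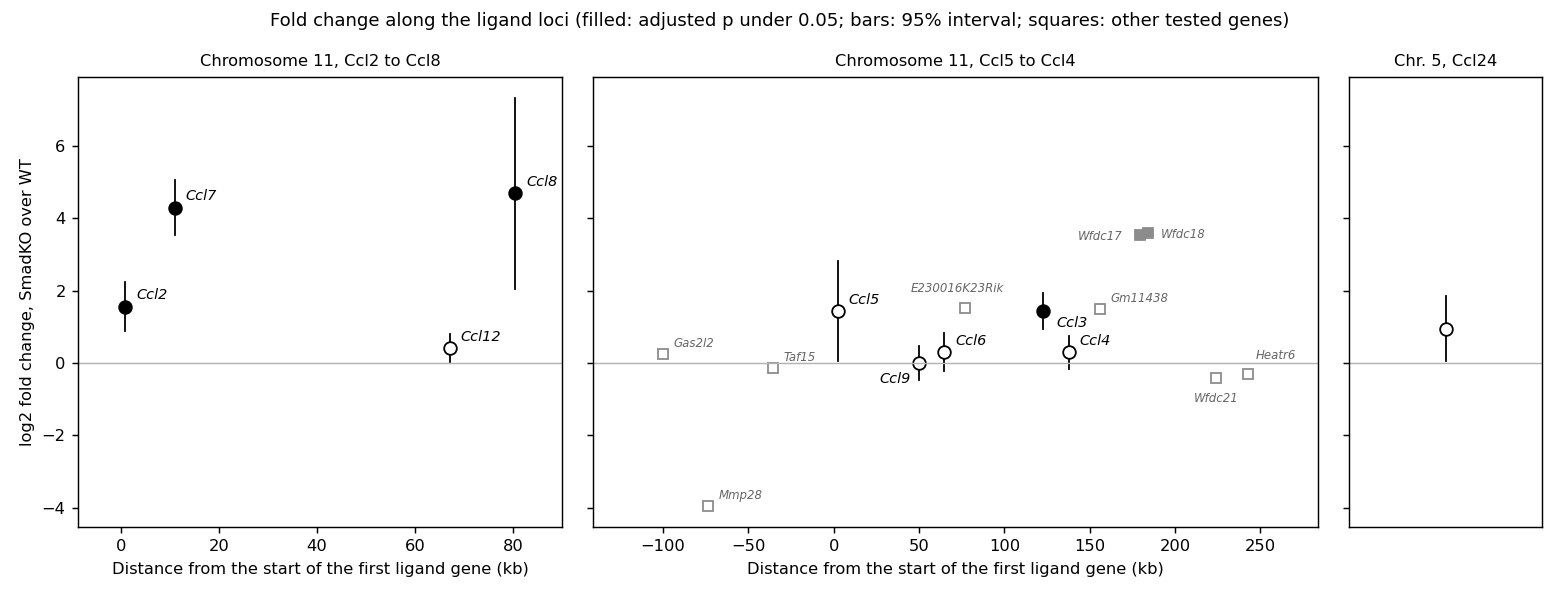
Log2 fold change of SmadKO over WT against distance in kb from the start of the first ligand gene of each cluster, with 95% intervals for the ligand genes and *Ccl24* in a panel of its own. Filled symbols passed the test, squares are the other tested genes near the second cluster, and the open symbol of *Ccl12* lies between the filled ones of *Ccl7* and *Ccl8*.

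Called and uncalled ligand genes were interspersed along both clusters. In the cluster from *Ccl2* to *Ccl8*, *Ccl12* lay between the called *Ccl7* and *Ccl8*, and its log2 fold change was 0.41 against 4.30 and 4.69. In the cluster from *Ccl5* to *Ccl4*, the only called ligand gene, *Ccl3*, had the uncalled *Ccl6* and *Ccl4* on either side. The tested genes within 100 kb that are no CC ligands were singled out after their values were seen. *Wfdc17*, a gene of the whey acidic protein family past *Ccl4*, went from a mean of 16.9 CPM in WT to 197 CPM in SmadKO (log2 fold change 3.54, adjusted p = 0.00342). *Wfdc18* beside it had a log2 fold change of 3.61 (adjusted p = 0.0216), and the 7 others near that cluster and *Asic2* near the first were not called.

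Promoter sequences are shown for the neighbours *Ccl12* and *Ccl8*, for *Ccl3* and for *Ccl9*, because they set a gene that was not called beside a called one in each cluster. RefSeq promoters on GRCm38.p6 matched 5 of the 10 genes (these and *Ccl6*). Each line holds the 250 bases before the start of transcription on the gene's own strand, 5′ to 3′, and capitals mark matches to the motifs searched.
*Ccl12* (chr11:82101595-82101844, plus strand): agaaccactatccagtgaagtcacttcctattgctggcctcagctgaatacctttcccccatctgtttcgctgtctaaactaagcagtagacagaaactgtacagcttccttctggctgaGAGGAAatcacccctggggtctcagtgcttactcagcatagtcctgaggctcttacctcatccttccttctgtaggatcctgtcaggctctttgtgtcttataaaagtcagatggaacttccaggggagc
*Ccl8* (chr11:82114935-82115184, plus strand): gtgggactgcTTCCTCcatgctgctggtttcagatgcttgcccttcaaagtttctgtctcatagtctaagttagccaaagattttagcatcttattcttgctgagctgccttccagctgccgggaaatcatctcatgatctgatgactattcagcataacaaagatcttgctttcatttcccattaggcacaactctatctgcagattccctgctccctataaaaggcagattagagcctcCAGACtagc
*Ccl3* (chr11:83649379-83649628, minus strand): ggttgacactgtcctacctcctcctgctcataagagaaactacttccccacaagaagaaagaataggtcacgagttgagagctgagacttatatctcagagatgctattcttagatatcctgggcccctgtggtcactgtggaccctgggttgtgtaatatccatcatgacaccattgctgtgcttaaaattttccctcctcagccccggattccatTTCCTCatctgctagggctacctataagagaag
*Ccl9* (chr11:83578637-83578886, minus strand): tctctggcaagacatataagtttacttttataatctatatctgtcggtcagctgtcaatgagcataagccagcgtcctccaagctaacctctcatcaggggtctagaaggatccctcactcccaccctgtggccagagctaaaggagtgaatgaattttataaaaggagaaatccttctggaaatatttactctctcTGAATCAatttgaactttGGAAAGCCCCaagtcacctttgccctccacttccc
The motifs were AP-1 (TGANTCA), the PU.1 core (GAGGAA), the SMAD box (CAGAC), the palindromic SMAD element (GTCTAGAC), the interferon-stimulated response element and the kappa-B consensus (the last 2 by name), searched on both strands of 300 bases from 250 before to 50 after the start. The PU.1 core, a motif of the myeloid factor PU.1, was found in *Ccl3*, *Ccl8* and *Ccl12*, from -33 to -28, -240 to -235 and -130 to -125, and 28.3% of 32851 promoters of the same length held it. The SMAD box was found in *Ccl8* from -9 to -5 and in *Ccl3* from 14 to 18, where 49.6% of all promoters held it. *Ccl9*, which was not called, held the AP-1 motif from -53 to -47 (7.81% of all promoters) and the kappa-B consensus from -35 to -26 (4.51%). The motifs do not overlap in these promoters, the *Ccl6* window held none of them, and no window of the 5 held the palindromic SMAD element (0.213%) or the interferon-stimulated response element (3.44%). These are matches of letters and not binding sites.

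Compared per kb of exon, *Ccl4* was the most abundant ligand transcript in both groups. In WT its level was 1149 ± 192 CPM per kb (SD, n = 4), followed by *Ccl3* with 493 ± 64.7, *Ccl12* with 319 ± 63.8, *Ccl2* with 109 ± 19.9 and *Ccl6* with 58.6 ± 12. *Ccl9* (21.2), *Ccl5* (16.2) and *Ccl7* (13.8) came next with ranges that overlapped from each to the next, and *Ccl24* (5.43) and *Ccl8* (0.394) were last.

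In SmadKO, *Ccl4* with 1413 ± 321 CPM per kb and *Ccl3* with 1332 ± 356 (SD, n = 4) overlapped in range, whereas in WT they did not. *Ccl12* (425), *Ccl2* (320.5) and *Ccl7* (271) then followed each other with overlapping ranges, so that *Ccl7* stood above *Ccl6* (71.9), *Ccl5* (44.0) and *Ccl9* (21.3). *Ccl24* (10.5) and *Ccl8* (10.3) overlapped at the low end.

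The 10 genes together took 1634 ± 208 CPM in WT and 3018 ± 650 CPM in SmadKO (SD, n = 4), with ranges of 1417 to 1885 and 2319 to 3654. *Ccl4* made up a mean of 46.3% of their counts in WT and 31.0% in SmadKO, and *Ccl3* 23.1% and 33.5%. The share of *Ccl7* was 0.696% and 7.19%, that of *Ccl2* 7.55% and 11.8%, and that of *Ccl12* 10.5% and 7.86%.

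**Figure D3:**
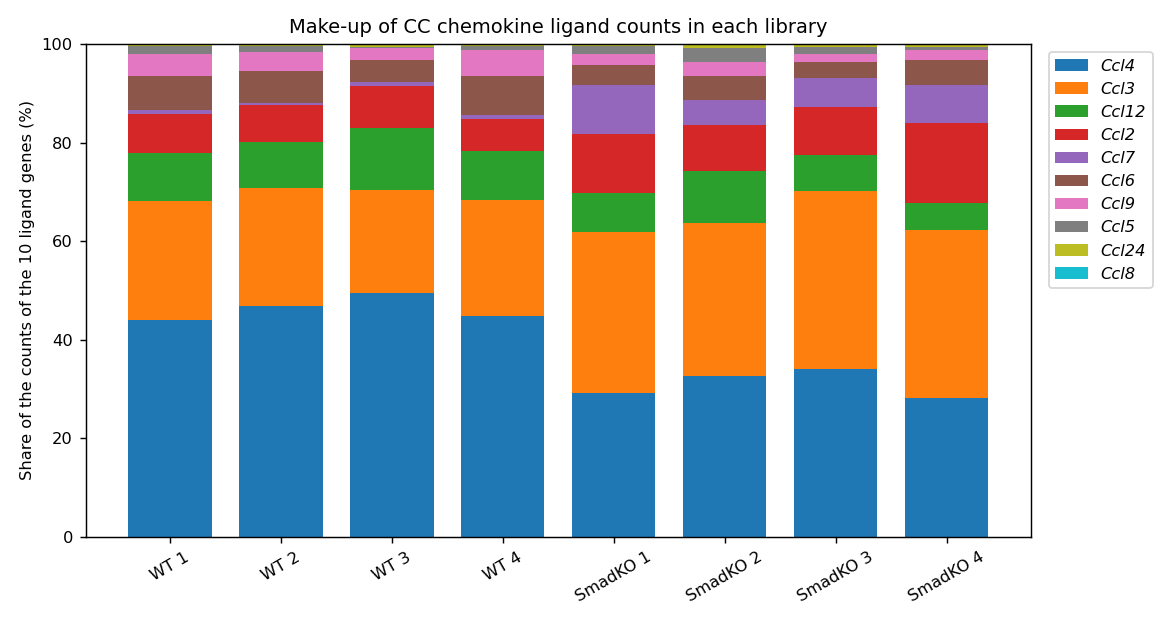
Share of each gene, in percent, among the counts of the 10 ligand genes in each WT and SmadKO library, as stacked bars. The *Ccl4* segment is between 43.9% and 49.6% in WT and between 28.1% and 34.1% in SmadKO, and the *Ccl7* segment is at most 0.875% in WT and at least 5.11% in SmadKO.

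Ratios of counts between 2 ligand genes within a library do not depend on how libraries are scaled. They compare how unequally the genes of a pair changed, and the pairs were chosen with the values known. The ratio of *Ccl7* to *Ccl2* was 0.113, 0.0505, 0.0812 and 0.130 in WT and 0.835, 0.549, 0.604 and 0.481 in SmadKO. That of *Ccl3* to *Ccl4* was 0.553, 0.512, 0.420 and 0.525 in WT and 1.12, 0.957, 1.05 and 1.22 in SmadKO. Both pairs had all mutants above all controls, with mean log2 ratios 2.78 and 1.12 higher in SmadKO.

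The ratio of *Ccl2* to *Ccl12* was also higher in SmadKO, by 1.06 on the log2 scale, and ranged from 0.656 to 0.793 in WT and from 0.882 to 2.93 in SmadKO. *Ccl6* to *Ccl9*, the most alike pair in sequence, overlapped between groups, as did *Ccl5* to *Ccl9*. Since each separated pair sets a called gene with groups that do not overlap against another ligand gene, these ratios are a description and were given no test.

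**Figure D4:**
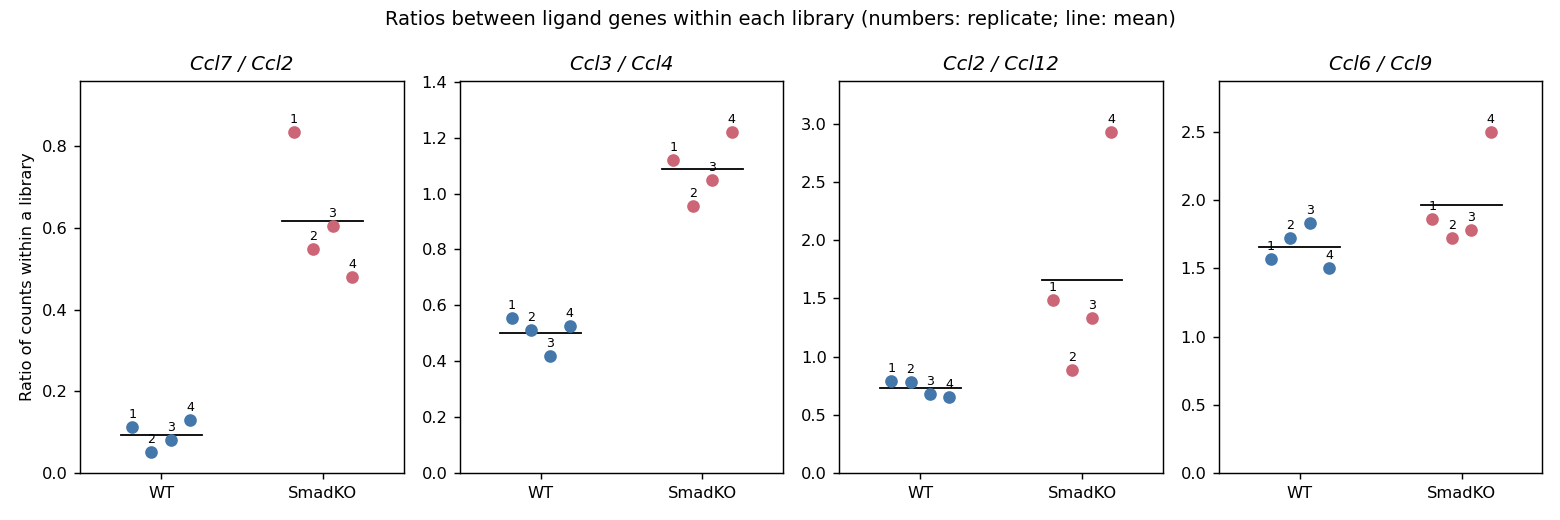
Ratios of counts of *Ccl7* to *Ccl2*, *Ccl3* to *Ccl4*, *Ccl2* to *Ccl12* and *Ccl6* to *Ccl9* within each WT and SmadKO library, on linear axes from 0 with points numbered by replicate and a line at the mean. The groups separate in the first 3 pairs, and in *Ccl6* to *Ccl9* the WT range of 1.5 to 1.83 overlaps the SmadKO range of 1.72 to 2.50.

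The other CC ligand genes were scarce in both groups. Of 14 further ligand genes 13 had a row and 5 passed the count filter, and none of these 5 was called by edgeR, at an unadjusted p-value under 0.05 or after adjustment. *Ccl25*, a ligand of CCR9, had the highest level of them, with means of 5.48 CPM in WT and 8.30 CPM in SmadKO (log2 fold change 0.60, adjusted p = 0.337). *Ccl17* and *Ccl22*, ligands of CCR4 that attract regulatory and helper T cells, had means between 0.460 and 1.48 CPM. *Ccl27a* and *Ccl27b* share 45.0% and 98.1% of their 50-base words with other genes, so their counts are uncertain. *Ccl11*, *Ccl19*, *Ccl20* and *Ccl26* had no count in any library.

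Of 15 CC receptor genes 11 were tested, and 1 was called higher and 1 lower, against 4.36% and 7.97% of all tested genes. The receptor gene called lower is not reported here. *Ccrl2*, an atypical receptor of the family, was at 86.1, 129, 108 and 114 CPM in WT and at 362, 325, 521 and 268 CPM in SmadKO, a log2 fold change of 1.76 (SE 0.23, adjusted p = 0.00146). All mutants lay above all controls.

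*Ccr2*, the receptor of MCP-1 on monocytes, was between 32.2 and 59.9 CPM in WT and between 21.7 and 52.5 CPM in SmadKO (log2 fold change -0.46, adjusted p = 0.397). *Ccr1*, a receptor of the *Ccl3*, *Ccl6* and *Ccl9* products, was between 27.4 and 118 CPM in WT and between 62.5 and 103.5 CPM in SmadKO (log2 fold change 0.46, adjusted p = 0.564). *Ccr3*, the receptor of eotaxins, and *Ccr6*, that of CCL20, were lower in all mutants than in all controls but were not called (adjusted p = 0.322 and 0.253 by edgeR). Among all tested genes, 22.1% showed no overlap between the groups in either direction. The counts of *Ccr3* were 194, 194, 133 and 181 in WT and 0, 1, 80 and 78 in SmadKO, so it was scarce and uneven among the mutants. *Ccr6* and *Ccr1l1* also passed the filter only through the WT libraries. Their counts in SmadKO 1 to SmadKO 4 were 79, 0, 0 and 0 for *Ccr6* and 94, 0, 0 and 0 for *Ccr1l1*. Without SmadKO 1 both were called lower, but with only 0 counts left in the mutants they had to differ. *Ccr1l1*, *Ccr7*, *Ccr8*, *Ackr1* and *Ackr4* overlapped between groups and were not called with all 8 libraries.

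**Figure D5:**
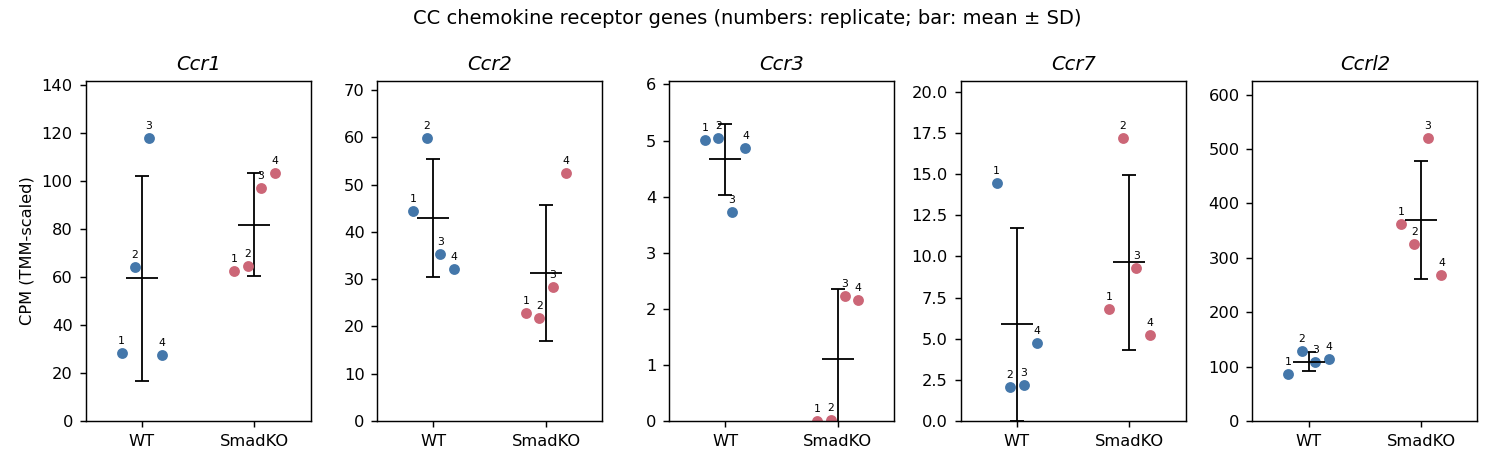
Scaled CPM of 5 CC chemokine receptor genes in 4 WT and 4 SmadKO libraries, with a linear axis from 0 for each gene, numbered points for replicates and bars for the mean ± SD. *Ccrl2* rises from at most 129 CPM in WT to at least 268 CPM in SmadKO, and *Ccr1*, *Ccr2* and *Ccr7* overlap.

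Other inflammatory genes were set beside the ligands through lists. Of 11 tested cytokine and inflammatory genes 6 were called higher and 1 lower, against 4.36% and 7.97% of all genes. The neutrophil attractants *Cxcl1* (log2 fold change 5.55, adjusted p = 0.00135) and *Cxcl2* (4.81, adjusted p = 9.84e-05) led, and *Cxcl2* was between 39.1 and 67.9 CPM in WT and between 821 and 2361 CPM in SmadKO. *Cxcl16*, a membrane-bound ligand of CXCR6, had a log2 fold change of 2.83 (adjusted p = 4.83e-05). The 1 called lower was *Csf1*, which encodes a growth factor of macrophages (log2 fold change -2.46, adjusted p = 0.00525), named after its value was seen. Neutrophil markers, of the cells that CXCL1 and CXCL2 attract, gave 1 call among 6, lower, with sums of 523 to 2272 CPM in WT and 245 to 785 CPM in SmadKO. The cells were sorted on the reporter of recombination, and recruitment of neutrophils to the brain was not tested.

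For the next 2 lists, the shares over all tested genes were 4.36% called higher and 7.97% lower. Of 12 interferon-stimulated genes 7 were called higher and none lower, with a list median log2 fold change of 1.93. The largest values were in *Oasl2* (4.52), *Ifi204* (3.45) and *Usp18* (2.67). Of 10 genes for NF-kB factors and their inhibitors none was called higher and 2 lower, *Nfkb1* (log2 fold change -1.54, adjusted p = 0.00229) and *Rela* (-0.85, adjusted p = 0.0418), which encode the p50 and p65 subunits. Only 1 was called lower with library totals in place of TMM factors, without a count filter, and in the fits without WT 1, WT 2, WT 3, SmadKO 2, SmadKO 3 or SmadKO 4, and the replicate block called 1 gene of the list higher.

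Immediate early genes, which also respond to the dissociation of tissue, were abundant in every library. Their summed level was between 39720 and 89860 CPM in WT and between 32020 and 63330 CPM in SmadKO, and *Fos* alone was between 10500 and 28170 CPM over all 8 libraries. Of 13 such genes *Ier3* was called higher (log2 fold change 1.68) and *Egr1* lower (-1.80), where 4.36% and 7.97% of all tested genes were called. The part of dissociation in the level of the CC ligand genes was not tested.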

How the data were processed

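RNA of sorted microglia from 4 SmadKO and 4 WT mice was analysed, with 1 library per mouse and groups taken from the sample titles. The deposited values are raw counts per gene, for which the authors used Rsubread for alignment to mm10 and featureCounts for counting. The submitters' processing notes also name DESeq2 1.28. The labels describe single-end Nextera XT libraries and the Methods paired-end NEBNext Ultra II libraries, both unstranded, and the Methods name another deposit for *Smad2/3* data, so the match to this experiment rests on genotype and cell type. The authors' table of their own DESeq2 comparison (means, fold changes and p-values) was not used.

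Testing covered the 20153 genes that reached 10 counts in 4 or more of the 8 libraries and was done with edgeR 4.0.16 in R 4.3.3 (TMM, estimateDisp, glmQLFit, glmQLFTest, Benjamini-Hochberg). The standard error is the size of the log2 fold change over the square root of F, and 95% intervals use the fit's total degrees of freedom. The biological coefficient of variation was 0.541 and the median standard error of the log2 fold change 0.37, so spread between mice rather than depth set the precision of abundant genes. The fit was tested on simulated data first. Levels per kb used merged exon lengths of GENCODE M21. Sequences came from GENCODE M21 transcripts and RefSeq promoters. The alternatives were DESeq2 1.42.0, RLE factors, library totals, no count filter, a filter on all 8 libraries, each library left out in turn, and a block on replicate number.

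The members and lists were chosen with earlier results of these data known. Named were all 10 ligand genes, other CC ligand and receptor genes that passed the filter, up to 3 called genes of each list and its defining genes, *Smad3*, *Xist* and *Ddx3y*, and the 3 genes most like the ligand gene with the largest rise. Python 3.11.15, pandas 2.3.3, numpy 2.4.6, matplotlib 3.10.9 and Biopython 1.88 were used. Some items are not reported here.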

Additional observations from a re-analysis of the deposited data

Results flagged for a closer look

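In 3 of the 20 sets of 4 libraries examined (10 ligand genes in each group), 1 library stood apart from the others by Dixon's 95% criterion on the ratio of the gap to the whole range, where chance alone gives about 1 in 20. *Ccl3* was at 451.2 CPM in WT 2, with a ratio of 0.876, above the 344 to 357 CPM of the other controls and below every mutant. *Ccl6* was at 186.1 CPM in SmadKO 4 (ratio 0.923) against 107 to 113 CPM in the other mutants. *Ccl8* was at 0.7262 CPM in WT 4 (ratio 0.928), from 27 counts, where the other controls had 0 to 2 counts.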

How the results depend on the processing

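The number of ligand genes called higher was 3 or 4 under all 14 alternatives, and none was called lower in any. With library totals the median log2 fold change of all genes moved by 0.117, and with RLE factors by 0.01. DESeq2 called 2079 genes higher and 2659 lower over all genes, against 878 and 1607. With 1 library left out these counts ranged from 525 to 1024 and from 1005 to 1587, and the lowest came without WT 2 (525 higher) and WT 3 (1005 lower). The receptors called lower were 1 to 3, and the cytokines called lower 1 to 3. The immediate early genes called lower were 1 to 3, and the NF-kB genes called lower 1 to 2. The cytokines called lower were 2 with the filter on all 8 libraries, with the replicate block and with DESeq2, the immediate early genes called lower were 3 with the block and DESeq2, and the NF-kB genes called lower were 1 with library totals and without a filter. The cause was not tested.

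*Ccl9* had a log2 fold change of -0.0009 without a filter, and of -0.0084, -0.1454 and -0.0649 without WT 1, WT 3 and SmadKO 4, in a range from -0.1454 to 0.1815 with 1 library left out. That of *Ackr1* was -0.4431 with the block and -0.6361 without SmadKO 4, the lowest of a range up to 1.0257. Same-numbered libraries correlated at 0.166, 0.0183, 0.144 and 0.114 in their deviations from the group means, and 6 of 8 correlated best with their own number. Since 1 pair was under 0.1, the numbers were not taken to pair mice. With the replicate block 4 ligand genes were called higher and 0 lower, 886 of all genes higher and 1497 lower, and 1 NF-kB gene higher.

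Depth limits only the scarce genes, such as *Ccl8* in WT, and counting error is not the error between mice.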

Other observations

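Markers of cell types without a stated link to the ligand genes were counted as well. Of 4 B cell markers none was called, with sums of 48.9 to 67.0 CPM in WT and 40.2 to 68.5 CPM in SmadKO. None of the 2 tested mast cell markers was called, with sums of 0.336 to 4.89 CPM and 0.779 to 21.3 CPM. Astrocyte markers (0 of 4 called) summed to 71.0 to 388 CPM in WT and 138 to 379 CPM in SmadKO, and neuron markers (0 of 4 called) to 26.7 to 221.5 CPM and 60.7 to 190.5 CPM. Oligodendrocyte markers (0 of 4 called) summed to between 554 and 4277 CPM in WT and between 1064 and 3558 CPM in SmadKO, and the sums of all 3 neural lists were highest in WT 1 and SmadKO 1. Endothelial markers (0 of 3 called) summed to 9.82 to 15.1 CPM in WT and 2.37 to 8.88 CPM in SmadKO. SmadKO 1 was the highest mutant library for 0 of the 10 ligand genes and the lowest for 3, and WT 1 the highest control for 0 and the lowest for 4.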
